A study of Mus musculus with 9 samples.

Results

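6 genes with low levels in control cerebral cortex and several-fold higher levels in cortex of embryos homozygous for a loss of Sfpq were described: Upp1, Cep295nl, Samd3, Scel, Pdlim3 and Gm10421. They were chosen for that difference, on the levels of the control and homozygous libraries, and are 6 of the 23201 named genes and 9 of the 30978 RefSeq transcripts in the deposited tables. RNA came from the cerebral cortex of mouse embryos at E13.5, an age at which neural progenitors of the ventricular zone still divide and early neurons settle. There were 3 control, 3 heterozygous (sfpq_hetero_KO) and 3 homozygous (sfpq_homo_KO) libraries, and embryos of all groups were of a mixed C57BL/6, C57BL/6J and CBA background. The promoter or line that removes Sfpq, the part of the gene removed and whether the control embryos carry a floxed or Cre allele are points on which the sources used here are silent. Each library was labelled as neuronal stem cells and neurons and read total RNA after removal of ribosomal RNA, so that RNA with and without a poly(A) tail was measured. Levels are RPKM, which scale the reads of a transcript to its length and to the depth of its library.

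SFPQ, a component of paraspeckles, binds nascent transcripts in the nucleus and acts in transcription and splicing. The 6 genes are not known as members of 1 pathway. Upp1 encodes uridine phosphorylase, which splits uridine into uracil and ribose-1-phosphate in pyrimidine salvage and breakdown. Scel encodes sciellin, a precursor protein of the cornified envelope of stratified epithelia, and Pdlim3 encodes ALP, a PDZ and LIM domain protein that binds alpha-actinin at the Z-discs of muscle. Samd3 encodes a protein with a sterile alpha motif, Cep295nl a protein named for its likeness to the N-terminal part of the centriole protein CEP295, and Gm10421 a long non-coding RNA.

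For 5 of the 6 genes RefSeq promoters on build GRCm38.p6 were at hand, and the 250 bases before the annotated start are shown because the genes were high in the same libraries. Capitals mark matches to 10 motifs searched on both strands: the TATA box (TATAAA), the CCAAT box, the GC box (GGGCGG), the E box (CACGTG), the AP-1 site (TGANTCA), the core of the cyclic AMP response element or CRE (TGACGT), the CARE element bound by ATF4 with C/EBP proteins (TGATGNAA), the TEAD site (GGAATG), the ETS core (CCGGAA) and a part of the NRF1 site (TGCGCA). The windows are chr11:9117758-9118007, plus strand, for Upp1, the first of 3 annotated starts, chr14:103513091-103513340, plus strand, for Scel, chr8:45885237-45885486, plus strand, for Pdlim3, chr10:26229457-26229706, plus strand, for Samd3 and chr12:117151270-117151519, minus strand, for Gm10421.
Upp1: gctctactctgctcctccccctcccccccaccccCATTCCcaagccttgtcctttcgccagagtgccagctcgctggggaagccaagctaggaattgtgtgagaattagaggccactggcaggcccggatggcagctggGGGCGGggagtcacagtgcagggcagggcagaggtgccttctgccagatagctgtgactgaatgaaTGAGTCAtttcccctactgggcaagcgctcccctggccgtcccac
Scel: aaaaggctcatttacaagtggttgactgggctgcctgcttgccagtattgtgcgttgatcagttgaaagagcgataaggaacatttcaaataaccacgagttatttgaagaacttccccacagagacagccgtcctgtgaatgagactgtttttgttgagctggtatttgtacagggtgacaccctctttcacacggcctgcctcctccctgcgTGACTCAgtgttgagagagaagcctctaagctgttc
Pdlim3: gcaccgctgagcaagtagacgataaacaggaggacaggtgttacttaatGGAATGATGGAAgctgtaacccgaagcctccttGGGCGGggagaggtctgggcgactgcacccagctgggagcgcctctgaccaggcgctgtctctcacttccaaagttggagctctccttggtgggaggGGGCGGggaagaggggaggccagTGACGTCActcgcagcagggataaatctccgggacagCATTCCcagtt
Samd3: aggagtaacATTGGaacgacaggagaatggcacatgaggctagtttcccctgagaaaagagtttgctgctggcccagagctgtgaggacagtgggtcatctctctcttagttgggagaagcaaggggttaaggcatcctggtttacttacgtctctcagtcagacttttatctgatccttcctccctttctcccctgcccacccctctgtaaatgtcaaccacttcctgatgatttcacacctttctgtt
Gm10421: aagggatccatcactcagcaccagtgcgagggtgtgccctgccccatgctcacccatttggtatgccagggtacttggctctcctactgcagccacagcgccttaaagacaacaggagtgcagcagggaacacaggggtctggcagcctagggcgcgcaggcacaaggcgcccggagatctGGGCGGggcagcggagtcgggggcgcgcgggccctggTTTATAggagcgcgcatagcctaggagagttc

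No motif was in all 5 windows. The windows of Upp1 and Scel each held 1 AP-1 match, 45 to 39 bases before the start in Upp1 and 36 to 30 bases before it in Scel, and 6.75% of the 32851 RefSeq promoter windows of this length held one. In Pdlim3 the CRE core matched on both strands 48 to 41 bases before the start (6.47% of all windows held it). A CARE match (3.45%) there overlapped a TEAD match (12.6%) 201 to 190 bases before the start. Other TEAD matches lay 11 to 6 bases before the start in Pdlim3 and 216 to 211 bases before it in Upp1. Pdlim3, Upp1 and Gm10421 held GC boxes (32.7% of all windows), Gm10421 also a TATA box on the opposite strand 32 to 27 bases before the start (12.4%), and the single match in Samd3 was a CCAAT box (33.8%). Base composition differed as well: GC content was 62.4% in Upp1, 64.0% in Gm10421 and 59.2% in Pdlim3, and 48.8% in Samd3 and 47.6% in Scel, against a median of 52.4% over all windows. CpG counts were 14 in Gm10421, 11 in Pdlim3, 6 in Upp1, 6 in Scel and 2 in Samd3. The E box (6.02%) and the NRF1 letters (6.43%) were in none of the windows shown, and the ETS core (12% of all windows) was only in the window of the last of the 3 Upp1 starts, which is not shown.

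Sfpq itself was at 168, 187 and 201 RPKM in control, 168, 149 and 151 RPKM in heterozygous and 23.8, 25.7 and 25.4 RPKM in homozygous cortex, so it was low in every library labelled homozygous. Depth, estimated from the smallest steps in each table, was 169500000 to 204500000 reads per library. Read from Xist and Y-linked genes, 2 controls and 1 homozygous embryo were female and the other libraries male. All 18 cortical genes listed, among them Emx1, Pax6 and Tubb3, passed the filter on low values, a mean of at least 0.5 RPKM. This bar is low: 12129 of the 23201 named genes passed it, as did all 13 endothelial markers listed.

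Upp1 was at 0.762, 0.920 and 0.888 RPKM in control, 0.981, 0.654 and 0.720 RPKM in heterozygous and 5.79, 4.73 and 5.08 RPKM in homozygous cortex. The control and heterozygous libraries overlapped, and all 3 homozygous libraries lay above them by at least 4.82-fold. Means were 0.857 ± 0.0837 RPKM for control and 5.20 ± 0.540 RPKM for homozygous cortex (SD, n = 3 each), a ratio of 6.07. As the genes were chosen on this contrast, no test is given for it here or for the 5 genes that follow.

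Upp1 has 3 RefSeq transcripts, which share at least 1095 of their 1157 to 1277 exonic bases, so their values are not separate measurements. NM_001159401, NM_009477 and NM_001159402 were at 0.857, 0.821 and 0.847 RPKM on average in control, 0.785, 0.732 and 0.779 RPKM in heterozygous and 5.20, 4.92 and 5.65 RPKM in homozygous cortex. The homozygous to control ratio was 6.07, 6.00 and 6.67 for the 3 transcripts. In the homozygous libraries NM_001159402 was at 1.17, 1.16 and 1.12 times the level of NM_009477, and in control cortex at 0.981, 0.975 and 1.14 times.

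Scel had the largest ratio of the 6 genes. It was at 0.0223, 0.0350 and 0.0514 RPKM in control, 0.0481, 0.0144 and 0.0448 RPKM in heterozygous and 1.75, 1.15 and 1.87 RPKM in homozygous cortex. At the estimated depths the controls stand for 9.49, 17.35 and 21.4 reads and the homozygous libraries for 719, 494 and 888 reads, so the control level is close to 0 but was read in every library. The lowest homozygous library lay 22.4-fold above the highest of the other 6, and the homozygous mean of 1.59 ± 0.386 RPKM was 43.9 times the control mean of 0.0362 ± 0.0146 RPKM (SD, n = 3 each).

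Cep295nl was at 0.0973, 0.179 and 0.0587 RPKM in control, 0.357, 0.0914 and 0.210 RPKM in heterozygous and 2.43, 2.38 and 2.84 RPKM in homozygous cortex. It varied least among the homozygous libraries, with an SD of 9.86% of the mean, and its homozygous mean of 2.55 ± 0.252 RPKM was 22.8 times the control mean of 0.112 ± 0.0615 RPKM (SD, n = 3 each). Heterozygous libraries 1 and 3, at 0.357 and 0.210 RPKM, were above all controls, while heterozygous library 2 was inside their range.

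Pdlim3 was at 0.771, 0.591 and 0.537 RPKM in control, 0.401, 0.430 and 0.739 RPKM in heterozygous and 3.34, 3.05 and 4.21 RPKM in homozygous cortex. The control and heterozygous ranges overlapped, and the homozygous mean of 3.53 ± 0.604 RPKM was 5.58 times the control mean of 0.633 ± 0.123 RPKM (SD, n = 3 each). Gm10421 was at 0.652, 0.710 and 0.172 RPKM in control, 0.0806, 0.208 and 0.406 RPKM in heterozygous and 2.72, 2.64 and 4.19 RPKM in homozygous cortex. Control library 3 was at the level of the heterozygous libraries, and homozygous library 3 stood above the other homozygous libraries. Its homozygous mean of 3.18 ± 0.871 RPKM was 6.23 times the control mean of 0.511 ± 0.295 RPKM (SD, n = 3 each).

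Samd3 was the most abundant of the 6 per length and was not off in control cortex. Its transcript NM_001115154 was at 4.58, 3.77 and 2.93 RPKM in control, 2.37, 2.13 and 3.85 RPKM in heterozygous and 17.3, 12.5 and 18.0 RPKM in homozygous cortex. The homozygous mean of 15.96 ± 3.00 RPKM was 4.25 times the control mean of 3.76 ± 0.827 RPKM (SD, n = 3 each), the smallest ratio among the 6. The words switched on therefore describe Scel and Cep295nl better than Samd3, Upp1 and Pdlim3, which were read at 0.537 to 4.58 RPKM in the controls. Gm10421, at 0.172 to 0.710 RPKM in the controls, overlapped Cep295nl, which reached 0.179 RPKM in control library 2.

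**Figure D1:**
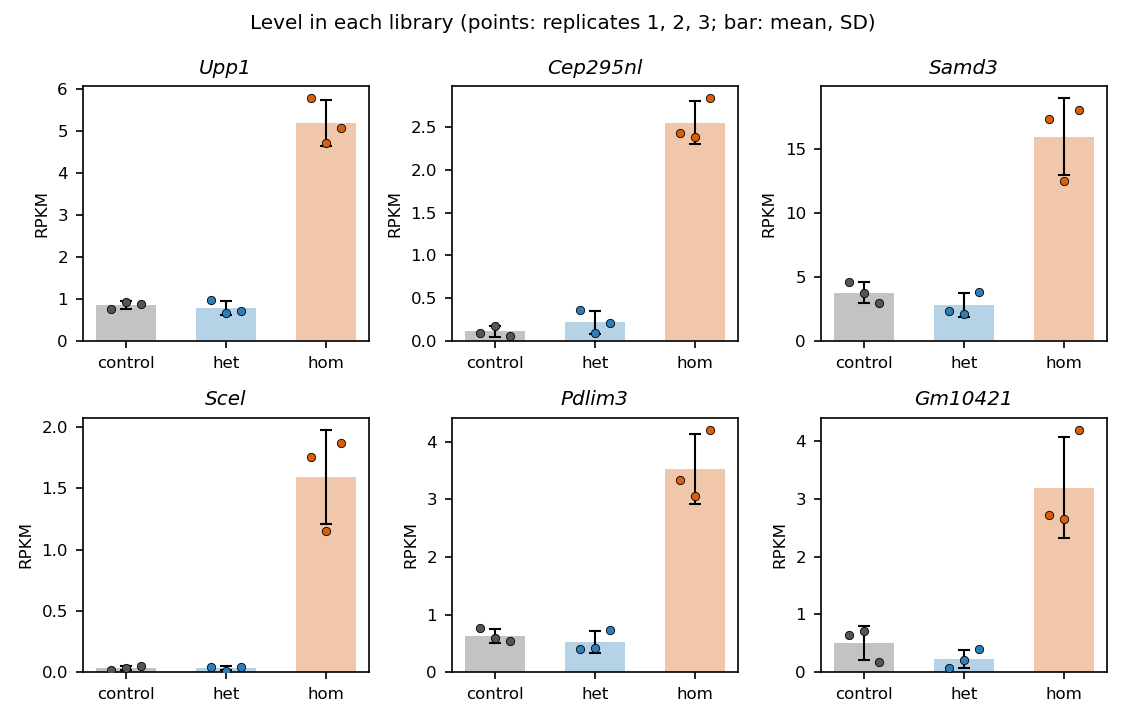
RPKM of each gene (1 panel each, own vertical axis from 0) in control, heterozygous (het) and homozygous (hom) libraries; points are replicates 1, 2 and 3 from left to right, bars the mean and error bars the SD of 3. In all 6 panels the homozygous points lie above every other point, from 12.5 to 18.0 RPKM for Samd3 and from 1.15 to 1.87 RPKM for Scel, and homozygous replicate 2 is the lowest of its group.

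The second transcript of Samd3, NM_001013766, was lower in every library: 2.45, 1.99 and 1.79 RPKM in control, 1.33, 1.25 and 2.05 RPKM in heterozygous and 8.15, 5.84 and 8.60 RPKM in homozygous cortex. The transcripts share 940 exonic bases, while 934 bases belong only to NM_001115154, with 11 exons, and 1680 only to NM_001013766, with 8 exons. NM_001115154 was at 1.87, 1.90 and 1.63 times the level of NM_001013766 in control and 1.79, 1.71 and 1.88 times in heterozygous cortex. The heterozygous ratios thus lay within the control range. In homozygous cortex the ratio was 2.13, 2.15 and 2.10. With 940 bases shared, the values of the transcripts are not separate measurements, and the difference in ratio was not tested. The homozygous ratios lay above all the others, and the ratio of the homozygous to the control mean was 4.25 for NM_001115154 and 3.63 for NM_001013766.

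**Figure D2:**
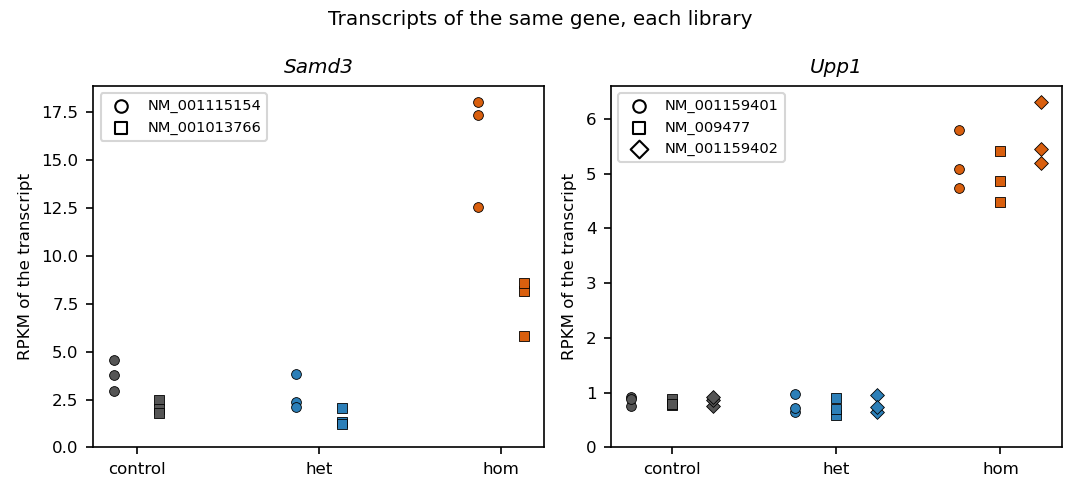
RPKM of each RefSeq transcript of Samd3 (left) and Upp1 (right) in control, heterozygous (het) and homozygous (hom) libraries; each point is 1 library and each marker shape 1 transcript. The Samd3 transcripts stand apart in homozygous cortex, at 12.5 to 18.0 against 5.84 to 8.60 RPKM, and the Upp1 transcripts overlap.

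On the log2(RPKM + 0.5) scale, which understates the change of low genes, the homozygous minus control difference was 2.32 ± 0.13 (SE) for Cep295nl, 2.07 ± 0.11 for Upp1, 1.95 ± 0.20 for Samd3, 1.95 ± 0.12 for Scel, 1.89 ± 0.24 for Gm10421 and 1.83 ± 0.14 for Pdlim3. In the order of this difference over the 12129 genes tested, those with a mean of at least 0.5 RPKM, they stood at places 3, 6, 8, 9, 11 and 14. Th, which encodes tyrosine hydroxylase, stood next above them at 2.86 (0.323 to 5.40 RPKM) and the glucose transporter Slc2a3 next below at 1.79 (5.14 to 19.0 RPKM). Over all genes tested the median was -0.01, 43.3% had an unadjusted p below 0.05, and 14.2% were called higher and 19.9% lower in homozygous cortex (limma, Benjamini-Hochberg adjusted p below 0.05), a split of 1723 against 2411 genes that became 2558 against 2149 with quantile normalization. In all 6 genes each homozygous library was above all 6 others, which was so for 16.1% of genes tested (20.4% lay above all 3 controls), and the choice of the genes fixes this. All 6 passed the filter on low values, Cep295nl, Scel and Gm10421 only through their homozygous libraries.

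Homozygous library 2 was the lowest of the 3 in 6 of 6 genes. This order was common among genes that were higher in homozygous cortex: library 2 was lowest for 37.8% of all genes tested and for 77.8% of the 81 genes called and at least 2-fold higher (0.668% of genes tested), which include these 6. Sfpq was at 25.7 RPKM in that library, against 23.8 and 25.4 RPKM in the others. The highest homozygous library exceeded the lowest by 1.19-fold for Cep295nl, 1.22-fold for Upp1, 1.38-fold for Pdlim3, 1.44-fold for Samd3, 1.58-fold for Gm10421 and 1.63-fold for Scel.

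The genes differed in genomic span, and not all were short. Gm10421 spans 6.69 kb, Cep295nl 10.1 kb, Upp1 18.1 kb, Pdlim3 34.1 kb, Samd3 42.5 kb and Scel 99.4 kb in the GRCm38 annotation, against a median of 23.1 kb over the genes tested. Scel is longer than 86.3% of genes tested, Samd3 than 68.0% and Pdlim3 than 62.0%.

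Heterozygous against control cortex is the comparison that the choice of genes did not use, although it shares the control libraries. The test (limma on all 9 libraries, adjusted over 12129 genes) speaks for Upp1, Samd3 and Pdlim3, which pass the filter on low values without their homozygous libraries: none of these 3 had an adjusted or an unadjusted p below 0.05. The values of Cep295nl, Scel and Gm10421 are given as a description, since only their homozygous libraries took them past the filter, and at the levels of Scel a pseudocount of 0.5 leaves little room for a difference. Over all genes 0 of 12129 were called (0.0%), and 692 (5.71%) had an unadjusted p below 0.05. In 0 of 6 genes did all heterozygous libraries lie above all controls, which held for 3.49% of genes tested, or below them, which held for 7.49%. The differences on the log2(RPKM + 0.5) scale were 0.22 ± 0.13 (SE) for Cep295nl, 0.00 ± 0.12 for Scel and -0.44 ± 0.24 for Gm10421. Upp1 differed by -0.08 ± 0.11 (SE, limma adjusted p = 0.997), Pdlim3 by -0.16 ± 0.14 (0.981) and Samd3 by -0.39 ± 0.20 (0.900).

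Thus 5 of 6 heterozygous means lay below the control mean, and in each gene the heterozygous and control libraries overlapped. Over all genes tested the heterozygous log2 difference was below 0 for 6582 of 12129. The 5 include Scel and Gm10421, which passed the filter only through their homozygous libraries. The heterozygous mean was 0.740 times control for Samd3, 0.827 times for Pdlim3, 0.916 times for Upp1, 0.987 times for Scel and 0.453 times for Gm10421, and 1.96 times for Cep295nl. The median heterozygous difference of the 6 was -0.12 and that of all genes -0.01. All 3 heterozygous embryos were male and 2 of 3 controls female. With sex in the model the differences were -0.18 for Samd3 (limma adjusted p = 0.894) and -0.26 for Gm10421. Against heterozygous cortex, which shares the homozygous libraries with the choice, the homozygous mean was 44.5 times for Scel, 13.8 times for Gm10421, 11.6 times for Cep295nl, 6.75 times for Pdlim3, 6.62 times for Upp1 and 5.74 times for Samd3.

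The 6 genes were compared with each other by the root mean square difference of their control-centred log2 values over all 9 libraries, the homozygous ones included. It was 0.20 between Pdlim3 and Scel, 0.20 between Pdlim3 and Samd3, 0.21 between Samd3 and Gm10421 and 0.26 between Pdlim3 and Gm10421. In Samd3, Pdlim3 and Gm10421, singled out after their values were seen, control library 3 was the lowest control and heterozygous library 3 the highest heterozygous library. Upp1 and Scel differed by 0.16, and Cep295nl and Gm10421 by 0.55, the widest pair. The 0.5 RPKM added before the log2 flattens low values, and Scel was at 0.0144 to 0.0514 RPKM in control and heterozygous cortex. With 0.1 added instead, the homozygous minus control difference was 3.61 for Scel and 2.47 for Upp1.

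By the same measure the genes outside the set most like each member came from the other large rises. Crabp2, a retinoic acid binding protein, was nearest to Upp1 (0.19), Samd3 (0.24) and Gm10421 (0.31), and Robo3, an axon guidance receptor, was nearest to Pdlim3 (0.18) and second for Upp1 (0.20), Samd3 (0.29) and Gm10421 (0.33). Mab21l1 was nearest to Scel (0.16), with Slc2a3 next (0.17), and Olig3 was nearest to Cep295nl (0.30), with Mab21l1 next (0.32). Eda2r, a receptor of the TNF receptor family, was second for Pdlim3 (0.22). Crabp2 was at 37.7 ± 4.18, 31.0 ± 1.45 and 165 ± 15.2 RPKM and Robo3 at 0.788 ± 0.133, 0.675 ± 0.00206 and 4.06 ± 0.219 RPKM in control, heterozygous and homozygous cortex (SD, n = 3 each). The measure includes the 3 homozygous libraries, on which the set was chosen, and it flattens the low values of Scel and Cep295nl.

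The neighbourhood of each gene was read next, to see whether reads of another gene could stand behind the values. In the GRCm38 annotation no exon of another gene overlapped any of the 9 transcripts, and none of their 36-base windows occurred in a transcript of another gene. The search covered annotated transcripts, not introns or the sequence between genes, so a part of reads from there was not tested. Of 26 genes that overlap the 6 or are the 2 nearest measured genes on each side, 14 passed the filter, of which 1 rose and 3 fell in homozygous cortex (limma, 34.1% of all genes tested were called), and 0 of 14 were called in heterozygous cortex. Their log2 changes ran from -0.75 to 0.54.

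Cep295nl lies wholly inside intron 1 of Timp2, on the same strand. Timp2, an inhibitor of matrix metalloproteinases, was at 5.41, 6.02 and 6.77 RPKM in control, 5.76, 6.30 and 6.62 RPKM in heterozygous and 3.82, 4.10 and 4.71 RPKM in homozygous cortex. The host thus went down where the gene in its intron was high: Timp2 fell by 0.48 ± 0.10 on the log2 scale (SE, limma adjusted p = 0.00274), with no overlap between the groups. The intron is 34.75 kb long and Cep295nl has 3 exons in it. Reads of unspliced Timp2 RNA would also fall on these exons, and their part in the Cep295nl level was not tested.

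Gm10421 lies in intron 12 of Ptprn2, a receptor-type phosphatase gene of secretory vesicles, on the opposite strand. Ptprn2 was at 1.01, 0.842 and 0.906 RPKM in control and 0.925, 0.901 and 1.19 RPKM in homozygous cortex, a log2 difference of 0.08 ± 0.09 (SE, limma adjusted p = 0.538). The libraries kept strand, but the sources used here do not say whether the authors counted by strand, so reads of Ptprn2 and Gm10421 cannot be told apart with certainty. Upstream, Gm5441 and Mir153, 83.3 and 99.5 kb away, were at or near 0 in all libraries. The next measured genes downstream, Ncapg2 and D430020J02Rik, lie 681 and 739 kb away, and Ncapg2, a condensin subunit, fell by 0.59 ± 0.08 on the log2 scale (SE, limma adjusted p = 1.91e-04), from a mean of 16.96 ± 0.607 to one of 11.1 ± 1.25 RPKM (SD, n = 3).

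Samd3 ends 1.545 kb from L3mbtl3, a chromatin reader gene on the opposite strand that runs toward it. L3mbtl3 was at 13.2, 13.6 and 15.8 RPKM in control, 13.2, 13.8 and 14.8 RPKM in heterozygous and 15.5, 15.3 and 17.0 RPKM in homozygous cortex. The groups overlapped and the log2 difference of 0.17 ± 0.08 (SE) did not pass (limma adjusted p = 0.120, but 0.0212 with quantile normalization, 0.0311 with median scaling, 0.0316 with the replicate number as a block and 0.0240 without control library 3). Upstream, Tmem200a, 150 kb away and on the opposite strand, differed by 0.22 ± 0.13 (SE, limma adjusted p = 0.223, but 0.0233 without homozygous library 2).

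Scel is followed 36.9 kb downstream on the same strand by Slain1, a microtubule plus-end protein gene. Slain1 was at 6.78, 6.56 and 7.86 RPKM in control, 7.78, 6.91 and 6.77 RPKM in heterozygous and 10.9, 9.59 and 10.9 RPKM in homozygous cortex. It was the neighbour that rose, by 0.54 ± 0.09 on the log2 scale (SE, limma adjusted p = 6.01e-04), with all homozygous libraries above the rest. Mycbp2, a ubiquitin ligase gene 166 kb upstream on the opposite strand, differed by 0.25 ± 0.10 (SE, limma adjusted p = 0.0627, but 0.0109 with quantile normalization, 0.0222 with median scaling, 0.0179 with the replicate number as a block and 0.0296 without homozygous library 1).

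Pdlim3 lies 57.6 kb downstream of Sorbs2 on the same strand. Sorbs2, an adaptor of the actin cytoskeleton that is also found at Z-discs, was at 7.40, 8.28 and 8.98 RPKM in control, 8.36, 8.34 and 8.62 RPKM in heterozygous and 4.33, 4.52 and 5.17 RPKM in homozygous cortex. It fell by 0.75 ± 0.08 on the log2 scale (SE, limma adjusted p = 4.35e-05) and spans 320 kb. On the other side Ccdc110 was near 0, with control libraries at 0.0151, 0.0425 and 0.0199 RPKM and homozygous ones at 0.0606, 0.0859 and 0.115 RPKM, and was not tested.

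Upp1 had no neighbour that passed the filter. Gm11992, 48.7 kb upstream on the same strand, was at 0.233, 0.267 and 0.375 RPKM in control and 0.351, 0.312 and 0.398 RPKM in homozygous cortex, so its ranges overlapped. Vwc2, far downstream at 1978 kb on the same strand, was at 0.402, 0.410 and 0.224 RPKM in control, 0.226, 0.240 and 0.353 RPKM in heterozygous and 0.841, 0.692 and 0.827 RPKM in homozygous cortex, with all homozygous libraries above the rest. Sun3, 69.0 kb upstream on the opposite strand, was near 0, with a control mean of 0.00989 RPKM and a homozygous mean of 0.0350 RPKM. Both entered the test only when no filter on low values was used, and both then passed (limma adjusted p = 0.0039 for Vwc2 and 0.012 for Sun3). Abca13, 55.8 kb downstream on the same strand, was at 0.00446 to 0.0118 RPKM in all 9 libraries.

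**Figure D3:**
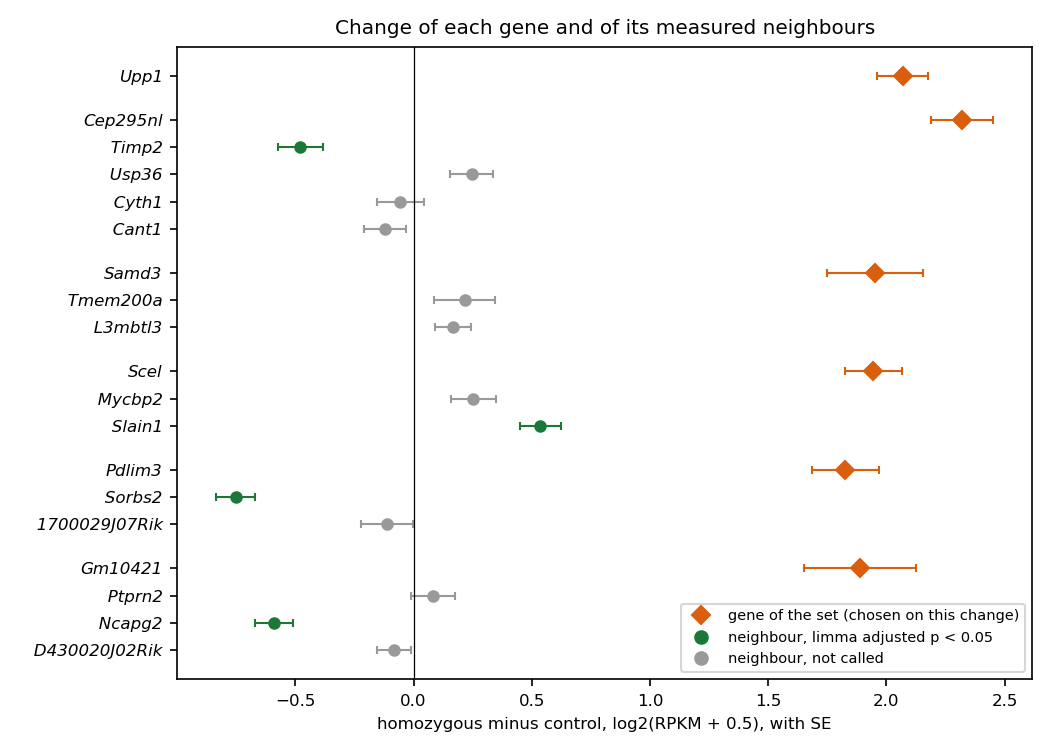
Homozygous minus control difference in log2(RPKM + 0.5), with its SE, for each gene of the set (diamonds) and for the neighbours reported here that passed the filter (circles, filled green where the limma adjusted p was below 0.05). The diamonds lie between 1.83 and 2.32 and the circles between -0.75 and 0.54, with Timp2, Sorbs2 and Ncapg2 on the lower side and Slain1 on the higher.

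Genes related to a member by function or, for Samd3, by a shared domain were read as lists. Of 38 other genes of pyrimidine salvage and breakdown 28 were tested, of which 2 rose (7.14%) and 11 fell (39.3%) in homozygous cortex, against 14.2% and 19.9% of all genes tested (median log2 change -0.14, against -0.01). Cda, cytidine deaminase, which makes the uridine that uridine phosphorylase splits, rose from 0.427, 0.312 and 0.467 to 1.16, 0.927 and 1.44 RPKM (log2 change 0.89 ± 0.12 SE, limma adjusted p = 2.12e-04), and the mitochondrial thymidine kinase Tk2 was the other that rose, by 0.29. Those that fell were led by the cytosolic thymidine kinase Tk1, from 25.3 to 12.9 RPKM (log2 change -0.95), the deoxyribose-phosphate aldolase Dera at -0.91 and the nucleotidase Nt5c2 at -0.74. Upp2, the liver form of uridine phosphorylase, was at 0.000 to 0.0383 RPKM in all libraries.

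Of 31 other centriole genes, all tested, 4 rose (12.9%) and 13 fell (41.9%), against the same 14.2% and 19.9% (median -0.18). Without control library 2, 2 rose and 8 fell. Poc1a and Poc1b, which stabilise centrioles, fell by 0.85 and 0.77 on the log2 scale, and Cetn2, centrin 2, rose by 0.36. Cep295 itself, which lets new centrioles become centrosomes, did not pass the test (limma adjusted p = 0.415), with means of 4.99 ± 0.451 RPKM in the control group and 4.58 ± 0.514 RPKM in the homozygous group (SD, n = 3).

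Of 20 other genes with a SAM domain 16 were tested, of which 4 rose (25%) and 2 fell (12.5%, median -0.09). Of all genes tested 14.2% rose and 19.9% fell. Without homozygous library 3 the number that fell was 4, and 2 rose without control library 2, heterozygous library 2, homozygous library 2 or homozygous library 3, or with sex in the model. Samd5 rose by 0.71 on the log2 scale and Samhd1, a dNTP hydrolase, by 0.38, while Samd4, an RNA-binding repressor of translation, fell from 3.40 to 0.593 RPKM, a change of -1.83.

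Of 28 other PDZ-LIM, actinin and Z-disc genes 16 were tested, of which 3 rose (18.8%) and 3 fell (18.8%, median -0.01). The shares of all genes tested were again 14.2% and 19.9%. The number that rose was 1 without control library 1 or 2, heterozygous library 2, or homozygous library 2 or 3, or with sex in the model. Besides Sorbs2, Fhl1, a LIM domain protein of muscle, rose by 0.59 on the log2 scale and Csrp2 fell by 0.34. Among the Pdlim genes, Pdlim1, Pdlim2, Pdlim4 and Pdlim7 did not pass (limma adjusted p = 0.859, 0.654, 0.322 and 0.876), and Pdlim5 rose by 0.34 (limma adjusted p = 0.0389), a call lost in 8 of 19 alternatives.

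Of 28 other cornified envelope genes 2 were tested and neither passed, and 10 were listed at 0 in all 9 libraries. With 2 tested, this list cannot show whether such genes moved together. Ivl, involucrin, was at 0.000 RPKM in 8 of 9 libraries, and Zfp185, the closest relative of sciellin, was at 0.156 to 0.162 RPKM in control and 0.179 to 0.222 RPKM in homozygous cortex. The 2 tested were Cstb and Krt10, a protease inhibitor and a keratin.

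**Figure D4:**
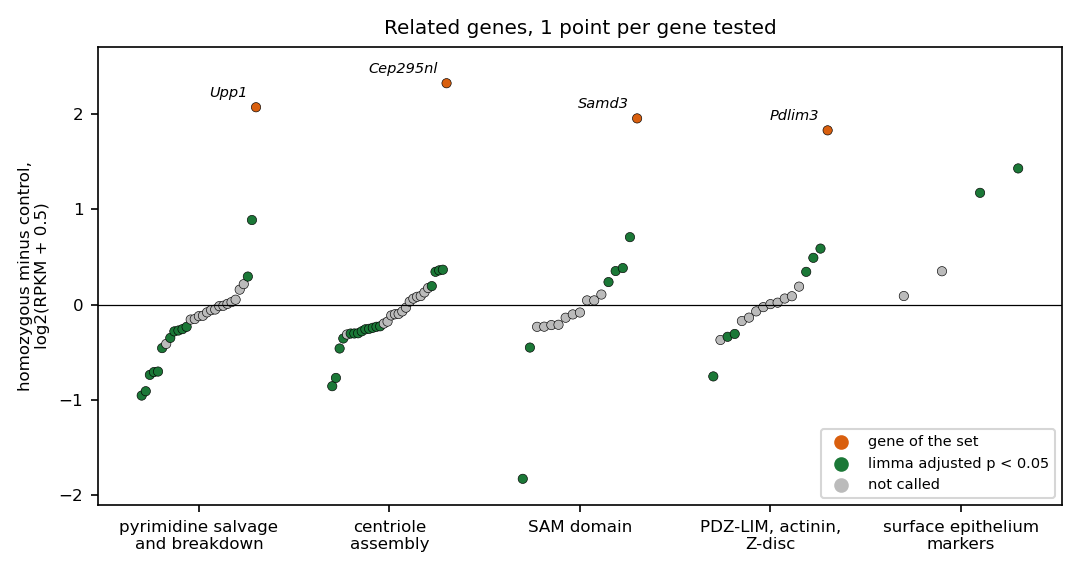
Homozygous minus control difference in log2(RPKM + 0.5), 1 point per gene tested, in 4 lists of related genes and the surface epithelium markers. Orange points are genes of the set, green points have a limma adjusted p below 0.05. The genes of the set were chosen for this change, which places them above the other members of their list. The nearest of those is Cda at 0.89. Epcam at 1.43 and Krt8 at 1.17 are the called epithelial markers.

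Markers of other cell types that a dissection could hold were summed per library. The 17 surface epithelium markers summed to 6.70 to 9.73 RPKM in control, 9.49 to 10.4 RPKM in heterozygous and 15.3 to 18.0 RPKM in homozygous cortex, and of 4 tested 2 rose, none fell and 0 of 17 were listed at 0 in all libraries. The 2 were Epcam, an epithelial adhesion molecule, at 1.65, 2.23 and 1.81 RPKM in control and 6.62, 5.08 and 6.13 RPKM in homozygous cortex (log2 change 1.43 ± 0.12 SE, limma adjusted p = 5.97e-06), and the simple epithelial keratin Krt8, from 1.14 to 3.19 RPKM. The epidermal markers Trp63, Krt5 and Krt14 were at 0.00632 to 0.0153, 0.0180 to 0.0979 and 0.00307 to 0.0373 RPKM in homozygous cortex. In heterozygous library 1 Krt5 was at 0.782 and Krt14 at 0.494 RPKM, the highest of the 9 libraries.

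For muscle, where Pdlim3 is best known, 18 markers summed to 4.82 to 5.60 RPKM in control and 4.97 to 6.30 RPKM in homozygous cortex, 3 were tested, Tnnt1 rose and Mylpf fell, and the muscle regulator Myod1 was at 0.000 to 0.0142 RPKM in homozygous cortex. Smooth muscle and pericyte markers summed to 31.2 to 44.2 RPKM in control and 34.96 to 41.25 RPKM in homozygous cortex, with Rgs5 rising among 8 tested, a call lost in 8 of 19 alternatives. For T and NK cells, where Samd3 is also expressed, 16 markers summed to 1.78 to 1.99 RPKM in control and 1.47 to 1.59 RPKM in homozygous cortex. Of these 7 were listed at 0 in all libraries, among them Cd3e, Nkg7 and Il2rb, and Lck made up most of the sum.

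Of 16 markers of the diencephalon and midbrain, tissue next to the cortex, 5 were tested and all 5 rose: Barhl2 by 1.09, Lhx9 by 0.90, Tcf7l2 by 0.57, Otx2 by 0.52 and Rspo3 by 0.29 on the log2 scale, the last lost in 5 of 19 alternatives. Their sum was 27.1 to 30.6 RPKM in control, 26.8 to 30.6 RPKM in heterozygous and 42.0 to 45.2 RPKM in homozygous cortex. Of 11 microglia markers tested 6 rose (2 without control library 1 or homozygous library 3), with sums of 17.9 to 20.1 RPKM in control and 23.6 to 31.6 RPKM in homozygous cortex. Of 18 cortical genes 8 fell and 3 rose (1 without control library 1 or 2 or homozygous library 3), Emx1 falling by 0.62 on the log2 scale. The part of these cells in the levels of the 6 genes was not tested, and in whole tissue a larger share of a cell type and more RNA per cell cannot be told apart.

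None of 13 endothelial markers tested passed, 1 of 14 meningeal and mesenchymal markers fell (Prrx1), 2 of 7 erythroid markers fell, among them Slc4a1 (0 of 7 without control library 2, control library 3 or homozygous library 3, 4 of 7 without control library 1 or heterozygous library 2, and 5 of 7 with the replicate number as a block), 1 of 6 choroid plexus markers rose (Otx2) and 1 of 2 sensory ganglion markers fell (Prph, with Isl1 added without control library 3 or heterozygous library 3).

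**Figure D5:**
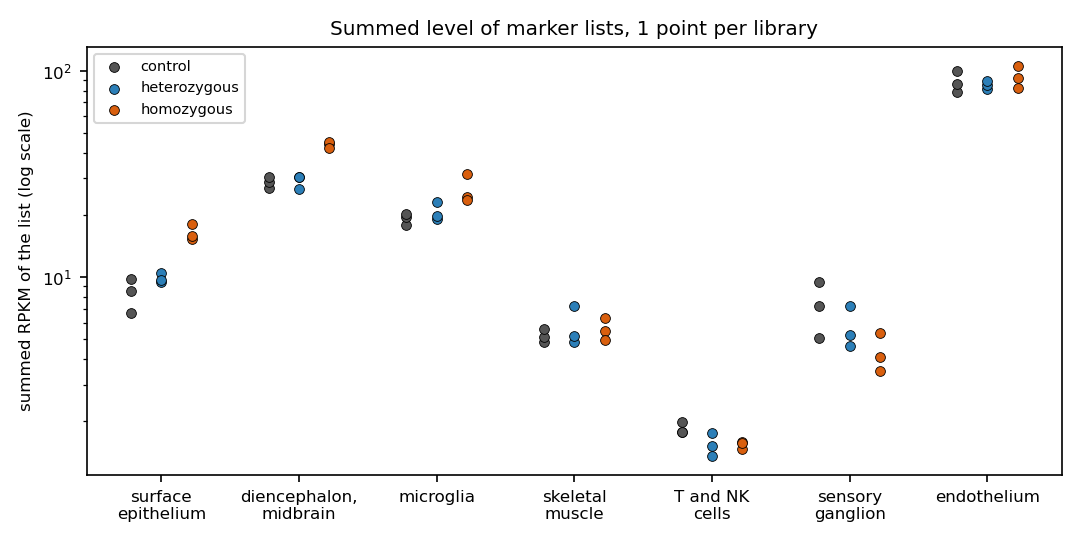
Summed RPKM of 7 marker lists (log scale), 1 point per library, for control, heterozygous and homozygous cortex. The homozygous sums lie above the others for surface epithelium (15.3 to 18.0 RPKM), diencephalon and midbrain (42.0 to 45.2 RPKM) and microglia (23.6 to 31.6 RPKM), and overlap the controls for skeletal muscle and endothelium.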

How the data were processed

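Libraries were prepared from column-extracted total RNA after Ribo-Zero treatment, with a strand-keeping protocol, per the labels' protocols. CASAVA 1.8.2, TopHat 1.4.1 and build mm9 were used, per the submitters' processing notes. The authors deposited 1 table per library with the RPKM of 30978 transcripts, per the file headers. The sources used here do not name the program behind the values, its annotation or its use of strand. Depths and read numbers are estimates from the smallest steps in each table and GENCODE M21 lengths: of the values below 5 reads, 65.5% to 68.9% came out whole within 0.1 read.

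Transcripts were named with the RefSeq gene table of GRCm38.p6 (30507) and GENCODE M21 (178), and 293 had no name. Each gene was represented by 1 transcript (coding first, then the largest span). All 9 libraries were fitted with limma 3.58.1 in R 4.3.3 (genotype, mean-variance trend) on log2(RPKM + 0.5) for 12129 genes (mean over libraries 0.5 RPKM or more), adjusted by Benjamini-Hochberg over all of them and called at 0.05. The same fit was run on simulated data for heterozygous against control cortex (12129 genes, 200 changed, 5 runs). There it found 76.8% of log2 changes of 0.5 and 97.4% of those of 1, and 5.21% of its calls were false. Changes were added on the log2(RPKM + 0.5) scale to genes drawn at random, with independent normal noise and no difference in sex. These shares therefore do not carry over to genes near 0, such as Scel. No 2 libraries held the same table. That embryos are separate animals is given by the design text, so p-values measure the spread between them.

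The 6 genes, the lists of related genes and markers (316 of 324 entries matched) and the tests were chosen with earlier results of these data known. Named genes are the 6, their neighbours, the list genes with the smallest adjusted p, close family members and the 2 most alike genes. Promoter sequences are from RefSeq, GRCm38.p6, another build than the authors', and were scanned for motifs only. Some genes of the lists and neighbourhoods are not reported here by name.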

Additional observations from a re-analysis of the deposited data

How the results depend on the processing

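No alternative reversed a difference of the 6 genes between homozygous and control cortex, which their choice for this difference fixes. The pseudocount moved it most for 5 of them, and for Samd3 the other transcript did, at 1.63: with 0.1 and 1 in place of 0.5 it was 3.61 and 1.31 for Scel, 3.68 and 1.68 for Cep295nl, 2.47 and 1.74 for Upp1, 2.31 and 1.47 for Pdlim3, 2.55 and 1.47 for Gm10421 and 2.06 and 1.83 for Samd3, and low controls depend on it. In heterozygous against control cortex none of Upp1, Samd3 and Pdlim3 was called in any alternative that kept them. Cep295nl, Scel and Gm10421 are left out of this count, since only their homozygous libraries took them past the filter. Over all genes 1 (Rps3a1) was called in a fit of the heterozygous and control libraries alone. When 1 library was left out 0 to 1 was called (Rps3a1 without homozygous library 1). Among the neighbours 4 were called; 7 were called with no filter (Ccdc110 beside Pdlim3, and Sun3 and Vwc2 beside Upp1, added), 7 with quantile normalization and 7 with median scaling (L3mbtl3, Mycbp2 and Usp36 added in both), and 4 to 6 when 1 library was left out. Timp2, Slain1, Sorbs2 and Ncapg2 were called in each. Same-numbered libraries did not all deviate together (correlations of -0.05 to 0.40), and the numbers were not taken as pairs in the main fit. The correlation was 0.40 between control and homozygous library 1 and 0.32 between control and homozygous library 3. Control and homozygous libraries of unlike number were at -0.44 to 0.10. With the replicate number as a block, 4397 genes were called in homozygous and 0 in heterozygous against control cortex. Of the neighbours 6 were called in the former. In control cortex Scel rests on 9.49 to 21.4 and Cep295nl on 19.6 to 71.3 estimated reads, which limits the precision of their ratios.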
